A study of Mus musculus with 8 samples.

Results

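Genes of MHC class I antigen processing were examined in laser-captured endometrium of 4 Thra1PV/+ and 4 WT mice. The group holds 10 genes, taken by name from the 52325 rows of the deposited count table: the class I chains H2-K1, H2-D1 and H2-Q7, the light chain B2m, the peptide transporter genes Tap1 and Tap2, the loading factor Tapbp, the immunoproteasome genes Psmb8 and Psmb9, and the regulator Nlrc5. All 10 were found and all 10 passed the filter on low counts, as did 18174 genes in all. The PV mutation sits in 1 Thra allele of the Thra1PV/+ mice, and its product is a dominant negative form of thyroid hormone receptor α1, while WT mice carry no mutated allele. Frozen uterine sections were cut at metestrus, endometrium was captured by laser, and mRNA libraries were sequenced from paired ends. The age of these mice and their strain are not given in the sources used here.

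Class I molecules sit on the surface of nearly all nucleated cells and show peptides cut from the cell's own proteins to CD8 T cells and natural killer cells. The proteasome makes the peptides, a transporter formed by TAP1 and TAP2 carries them into the endoplasmic reticulum, tapasin holds the empty class I molecule beside the transporter, and a heavy chain leaves for the surface together with β2-microglobulin. NLRC5 switches on many of these genes together, and interferons raise their transcription in many cell types.

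Libraries held 48791602 to 59818887 estimated counts, and every member had between 650 and 89704 of them in every library. Thra was at 80.1 ± 34.2 CPM (counts scaled to library size after TMM normalization, SD, n = 4) in Thra1PV/+ and 78.0 ± 33.7 CPM (SD, n = 4) in WT endometrium, and its counts do not separate the mutated from the normal transcript. Markers of the captured tissue were present, but their balance differed within both genotypes. The simple epithelium list (Krt8, Krt18, Krt19, Epcam, Cdh1) summed to 1653 to 4154 CPM in Thra1PV/+ and 1709 to 4660 CPM in WT libraries, the stroma list of 7 genes to 343 to 4759 CPM and 1307 to 4649 CPM, and the squamous epithelium list of 6 genes to 2222 to 3645 CPM and 1.09 to 34.0 CPM. All 6 squamous genes were called higher in Thra1PV/+ endometrium. WT library 1 also stood apart by 9424 CPM of 5 smooth muscle markers, where WT libraries 2 to 4 had 336 to 779 CPM and the Thra1PV/+ libraries 101 to 395 CPM, and all 5 markers were lower in Thra1PV/+ endometrium at an unadjusted p under 0.05 (median log2 fold change -4.60), with 0 called. Among all tested genes, edgeR's test called 0.99%, and 9.77% had an unadjusted p under 0.05. In bulk libraries such as these, fewer cells of a type and less RNA per cell cannot be told apart.

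No member passed the test between the genotypes, and for most of them the 95% interval stayed within a 2-fold change. Calls needed an adjusted p of 0.1 or less in edgeR's quasi-likelihood test (Benjamini-Hochberg adjustment over all 18174 tested genes) together with at least a 2-fold change. By that rule 0 of 10 members were called, where 0.99% of all tested genes were. At an unadjusted p under 0.05, again 0 of 10 passed, where 9.77% of all genes did. DESeq2, run without the filter on low counts, gave 0 members and 2644 genes in all at an unadjusted p under 0.05. For no member were the 4 Thra1PV/+ libraries separate from the 4 WT libraries, as they were for 6.04% of all genes. All values come from the same libraries, so the signs of the members are not separate observations. The log2 fold change was positive for 9 of 10 members and for 7843 of the 18174 tested genes. Its median was 0.17 over the members and -0.05 over all tested genes. The exception by sign was Tapbp, which turned to 0.01 under DESeq2's size factors, and on the deposited TPM values Tap2 and Psmb9 were below 0 in its place (-0.01 and -0.11 with a pseudocount of 1). The 95% interval of the fold change lay inside a 2-fold change either way for 9 of 10 members, the exception being Nlrc5, and for 48.1% of all tested genes. The narrower intervals went with a smaller spread between libraries, a median SD within genotype of 0.317 on the log2 CPM scale for the members and 0.453 for all genes.

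**Figure D1:**
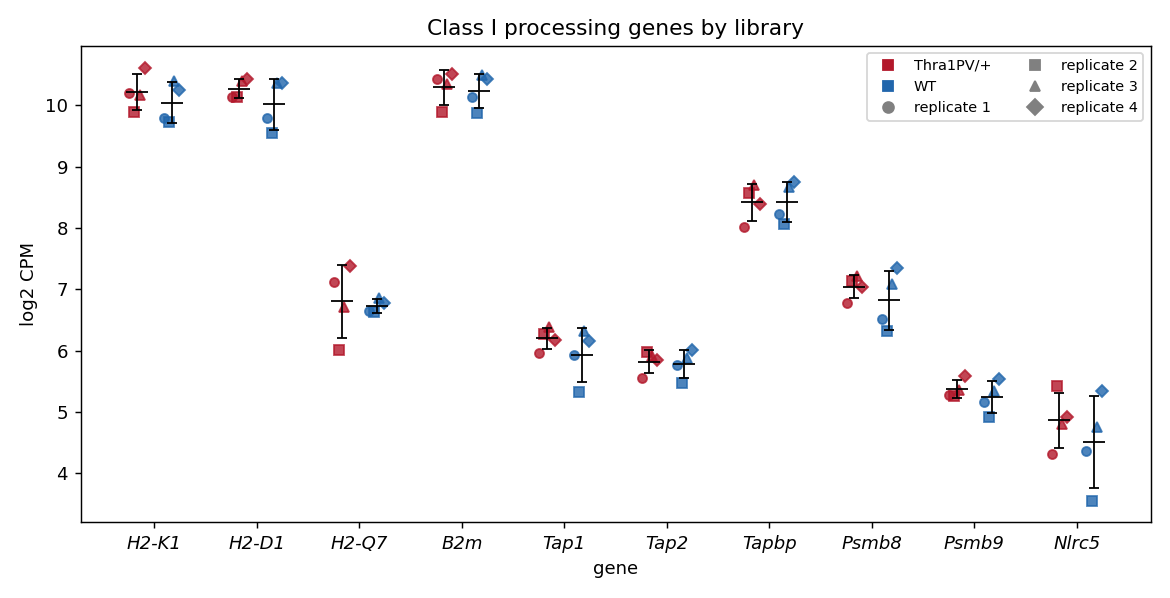
Log2 CPM (vertical axis) of the 10 members (horizontal axis) in 4 Thra1PV/+ (red) and 4 WT libraries (blue), with marker shape for the replicate number and black bars for the mean and SD of 4 libraries. The genotypes overlap for every gene, and WT library 2 (blue square) is the lowest library for 8 of the 10.

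The class I heavy chains present the peptide. H2-K1 and H2-D1 encode the classical K and D molecules recognised by CD8 T cells, and H2-Q7 encodes Qa-2, a nonclassical molecule that can be anchored in the membrane by a lipid. H2-K1 (ENSMUSG00000061232.15, chromosome 17 of GRCm38, 33996017 to 34000347, minus strand) had 1180, 952, 1148 and 1571 CPM in Thra1PV/+ libraries 1 to 4 and 888, 845, 1354 and 1226 CPM in WT libraries 1 to 4. The highest library was Thra1PV/+ 4, the lowest were WT 2 and WT 1, and the ranges overlapped. The log2 fold change was 0.17 (SE 0.23, fold 1.12 with a 95% interval of 0.784 to 1.61, edgeR adjusted p = 0.871). H2-D1 (ENSMUSG00000073411.11, chromosome 17, 35262730 to 35267499, plus strand) had 1129, 1122, 1347 and 1385 CPM in Thra1PV/+ and 884, 751, 1327 and 1321 CPM in WT libraries. WT 1 and WT 2 lay below all 4 Thra1PV/+ libraries, and WT 3 and WT 4 lay among them. Its log2 fold change was 0.22 (SE 0.22, fold interval 0.815 to 1.66, adjusted p = 0.821).

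H2-Q7 (ENSMUSG00000060550.15, chromosome 17, 35439155 to 35443773, plus strand) had the reverse spread. It had 140, 64.7, 105 and 167 CPM in Thra1PV/+ and 100, 99.0, 116 and 109 CPM in WT libraries, so the WT libraries were close together and the Thra1PV/+ libraries lay on both sides of them. Thra1PV/+ library 2 was the lowest of all 8 and Thra1PV/+ library 4 the highest. The SD of log2 CPM was 0.60 in Thra1PV/+ and 0.11 in WT, and the log2 fold change was 0.16 (SE 0.26, fold interval 0.736 to 1.70, edgeR adjusted p = 0.898). This spread was not particular to H2-Q7. H2-Q6, a class I chain outside the members, had an SD of 0.61 in Thra1PV/+ and 0.25 in WT. Thra1PV/+ libraries 2 and 4 were also the lowest and highest for H2-Q6.

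The heavy chain genes are alike in sequence, and salmon divides a read that fits several of them. Of the stretches of 31 bases in their annotated transcripts, 22.6% for H2-K1, 22.8% for H2-D1 and 36.0% for H2-Q7 also occur in another class I chain, H2-Q7 sharing most with H2-Q10. B2m shares 0.0%. The split between chains is therefore less certain than their total, and it also depends on how near the animals' own alleles are to the reference. Summed over the 31 rows of class I chains, the level was 2944, 2660, 3219 and 3800 CPM in Thra1PV/+ and 2445, 2068, 3531 and 3316 CPM in WT libraries. The sum was 3156 ± 486 CPM (SD, n = 4) and 2840 ± 697 CPM (SD, n = 4), a log2 fold change of 0.15 (SE 0.23) when the rows were fitted as 1 gene, and the ranges overlapped. H2-K1 made up 38.2% ± 2.92 of the sum in Thra1PV/+ and 38.1% ± 2.0 in WT libraries, H2-D1 39.7% ± 2.78 and 37.5% ± 1.70, and H2-Q7 3.70% ± 1.06 and 3.87% ± 0.721 (SD, n = 4 each).

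B2m (ENSMUSG00000060802.8, chromosome 2, 122147686 to 122153083, plus strand) encodes the light chain that every class I molecule needs. It had 1378, 948, 1298 and 1460 CPM in Thra1PV/+ and 1128, 940, 1437 and 1377 CPM in WT libraries. Library 2 was the lowest within each genotype, and the ranges nearly coincided. This gave a log2 fold change of 0.06 (SE 0.21, fold interval 0.751 to 1.44, edgeR adjusted p = 0.960).

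The chains and B2m are known to share a promoter arrangement, in which an X2 box and a Y box lie at a fixed distance and carry the complex that NLRC5 joins. The promoters were searched because B2m followed H2-K1 and H2-Q7 across libraries, as given further on. Whether the motifs have a part in that covariation was not tested. RefSeq promoter sequences (GRCm38.p6, 250 bases before the start site) were at hand for 8 of the 10 members, Tap2 and Nlrc5 being the others. The core letters of the X2 box, TGACG, followed after 15 to 25 bases on the same strand by ATTGG, the Y box and the reverse of CCAAT, were found in 125 of 32851 promoters (0.381%, either strand), and in 4 of the 8 members, H2-K1, H2-D1, H2-Q7 and B2m. Counted back from the start site at 0, TGACG began at -41 in H2-K1, -101 in H2-D1, -64 in H2-Q7 and -78 in B2m, and 20, 20, 19 and 20 bases lay between the motifs. The letters GGGATTCCC, of the kind bound by NF-κB in class I promoters, were found in 0.301% of all promoters and in the 3 heavy chains. TGACG alone was in 17.8% of all promoters and in 6 of the 8 members, and CCAAT in 33.8% and in 7 of the 8. AAANNGAAA, with N for any base, was also searched. It was in 9.37% of all promoters and in 1 of the 8 members, B2m. The 3 windows whose bases lie in no annotated exon are given 5′ to 3′ on the gene's own strand, in lower case with the TGACG and ATTGG of the pair and GGGATTCCC in capitals. Any further CCAAT, such as the second one of H2-Q7 close to the start site, is left in lower case. TGACG precedes ATTGG in all 3.
H2-K1, chr17:34000348-34000527, minus strand: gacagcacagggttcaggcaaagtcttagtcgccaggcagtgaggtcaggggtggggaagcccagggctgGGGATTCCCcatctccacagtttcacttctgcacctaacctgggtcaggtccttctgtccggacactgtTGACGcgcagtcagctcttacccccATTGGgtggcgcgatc
H2-Q7, chr17:35438975-35439154, plus strand: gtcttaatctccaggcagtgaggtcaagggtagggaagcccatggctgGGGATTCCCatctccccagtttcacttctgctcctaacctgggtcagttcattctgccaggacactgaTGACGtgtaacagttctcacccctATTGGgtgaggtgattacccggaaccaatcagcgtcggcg
B2m, chr2:122147507-122147685, plus strand: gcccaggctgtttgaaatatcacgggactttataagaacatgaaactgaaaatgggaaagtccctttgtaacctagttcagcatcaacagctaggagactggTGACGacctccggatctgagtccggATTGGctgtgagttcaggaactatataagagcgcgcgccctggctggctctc

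Peptide transport and the immunoproteasome share 1 stretch of chromosome 17. In GENCODE M21 (GRCm38), Psmb9 (34181987 to 34187764, minus strand) and Tap1 (34187553 to 34197225, plus strand) run away from each other and overlap by 212 bases, Psmb8 (34197721 to 34201454, plus strand) begins 495 bases after Tap1, and Tap2 (34203527 to 34216321, plus strand) follows, the 4 genes spanning 34335 bases. Antisense transcripts are annotated across Tap2 and Psmb8. The libraries were stranded, but whether the counting used strand is not given in the sources used here, so reads from overlapping genes may be shared.

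Tap1 encodes 1 chain of the transporter. It had 62.6, 77.6, 83.3 and 72.4 CPM in Thra1PV/+ and 60.9, 40.0, 79.6 and 71.2 CPM in WT libraries, with WT 2 far below the other 7. The fitted log2 difference was 0.23 (SE 0.21, fold interval 0.838 to 1.65, edgeR adjusted p = 0.789). Tap2, the other chain, had 46.9, 63.3, 60.3 and 57.6 CPM in Thra1PV/+ and 54.4, 44.5, 58.9 and 64.5 CPM in WT libraries. Both genotypes had 1 low library, and Tap2 had the second smallest log2 fold change in size, 0.04 (SE 0.15, fold interval 0.804 to 1.31, adjusted p = 0.968).

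Tapbp (ENSMUSG00000024308.14, chromosome 17, 33915899 to 33929292, plus strand) encodes tapasin. It had 258, 381, 417 and 336 CPM in Thra1PV/+ and 300, 269, 405 and 431 CPM in WT libraries. The lowest library was Thra1PV/+ 1, the highest WT 4, and the genotypes overlapped throughout. Between them the log2 fold change was -0.01 (SE 0.21, fold interval 0.705 to 1.39, edgeR adjusted p = 0.991).

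Psmb8 and Psmb9 encode catalytic subunits that take the place of the standard subunits encoded by Psmb5 and Psmb6 when interferon acts on a cell. Psmb8 had 110, 141, 149 and 132 CPM in Thra1PV/+ and 91.8, 79.9, 136 and 163 CPM in WT libraries. WT 1 and WT 2 lay below all Thra1PV/+ libraries and WT 4 above all of them. Its log2 fold change was 0.17 (SE 0.24, fold interval 0.773 to 1.65, edgeR adjusted p = 0.873). Psmb9 had 39.0, 38.5, 41.1 and 48.1 CPM in Thra1PV/+ and 36.0, 30.4, 40.6 and 46.5 CPM in WT libraries. WT 1 and WT 2 lay below all Thra1PV/+ libraries and WT 3 and WT 4 among them, and the log2 fold change was 0.12 (SE 0.16, fold interval 0.847 to 1.39, adjusted p = 0.866).

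Nlrc5 (ENSMUSG00000074151.13, chromosome 8, 94434356 to 94527272, plus strand) encodes the transactivator of class I genes and was the least precise of the members. It had 19.96, 42.9, 27.9 and 30.2 CPM in Thra1PV/+ and 20.7, 11.7, 27.0 and 40.6 CPM in WT libraries, a spread of more than 2-fold within each genotype. It had a log2 fold change of 0.28 (SE 0.38, fold interval 0.665 to 2.20, edgeR adjusted p = 0.874), so a change of just over 2-fold upward was not bounded away. Leaving out single libraries moved this value between 0.06 and 0.61.

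Two-sided exact permutation tests of log2 CPM, in which 70 arrangements of the libraries allow no p below 0.0286, gave the members p-values that ranged from 0.286 (H2-D1 and Tap1) to 0.971 (Tapbp). The members did differ from each other in level. By the deposited TPM values, which are scaled per transcript length, the order over 8 libraries was B2m (mean 2712 TPM, SD 619), H2-K1 (970, SD 217), H2-D1 (832, SD 162), Tapbp (194, SD 26.4), Psmb8 (133, SD 32.7), H2-Q7 (88.2, SD 32.0), Psmb9 (57.8, SD 8.23), Tap1 (32.7, SD 5.87), Tap2 (27.5, SD 3.40) and Nlrc5 (13.2, SD 5.12). The ranges of neighbours did not overlap between B2m and H2-K1, H2-D1 and Tapbp, Psmb9 and Tap1, and Tap2 and Nlrc5. H2-K1 exceeded H2-D1, and Tapbp exceeded Psmb8, in 8 of 8 libraries although their ranges overlapped. Psmb8 over H2-Q7, H2-Q7 over Psmb9 and Tap1 over Tap2 held in 7 of 8 libraries, and the order of those neighbours is within their spread.

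Other genes of class I presentation were read as a list of 51, of which 48 were tested. Of these 48, edgeR's test called 0, where it called 0.99% of all tested genes. A positive log2 fold change was found for 29, where 7843 of the 18174 tested genes had one, and the median of the list was 0.06. Only 1 had an unadjusted p under 0.05, where 9.77% of all tested genes did. That gene was Jak2, a kinase of the interferon-γ receptor, with 148, 122, 112 and 130 CPM in Thra1PV/+ and 130, 335, 288 and 168 CPM in WT libraries. WT 2 and WT 3 were high and WT 1 lay within the Thra1PV/+ range. Its log2 fold change was -0.85 (SE 0.30, fold interval 0.347 to 0.891, unadjusted p = 0.0205, adjusted p = 0.391).

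Among the class I-like chains, 14 of 17 were tested, 7 were above 0 and the median log2 fold change was 0.00, H2-Q1, H2-T3 and H2-M2 having too few counts. H2-Q10 had the largest value, 0.68 (SE 0.37, adjusted p = 0.615), from 11.7 ± 4.66 CPM in Thra1PV/+ and 7.31 ± 2.59 CPM in WT libraries (SD, n = 4 each). H2-T23, which encodes the Qa-1 molecule that natural killer cells recognise, had 176 ± 43.3 CPM and 188 ± 99.9 CPM (SD, n = 4 each). The 6 loading and trimming genes, with the chaperone genes Calr, Canx and Pdia3 and the peptide trimming gene Erap1 among them, had log2 fold changes of 0.02 to 0.23. Erap1 was level across Thra1PV/+ libraries, at 71.0 ± 1.87 CPM, and varied more in WT, at 69.8 ± 17.7 CPM (SD, n = 4 each). The 8 proteasome genes had a median of -0.03, from -0.34 (Psmb5) to 0.25 (Psme2, a subunit of the interferon-induced proteasome activator). The 20 regulators had a median of 0.12. Rfx5, Rfxap and Rfxank, whose products bind the X box, had log2 fold changes of 0.11, -0.03 and -0.08, and Irf1, an interferon-induced transcription factor, had 0.23 (SE 0.26). Transcripts of interferon-γ itself, Ifng, were near the limit of counting, with 1 to 20 counts in each library.

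**Figure D2:**
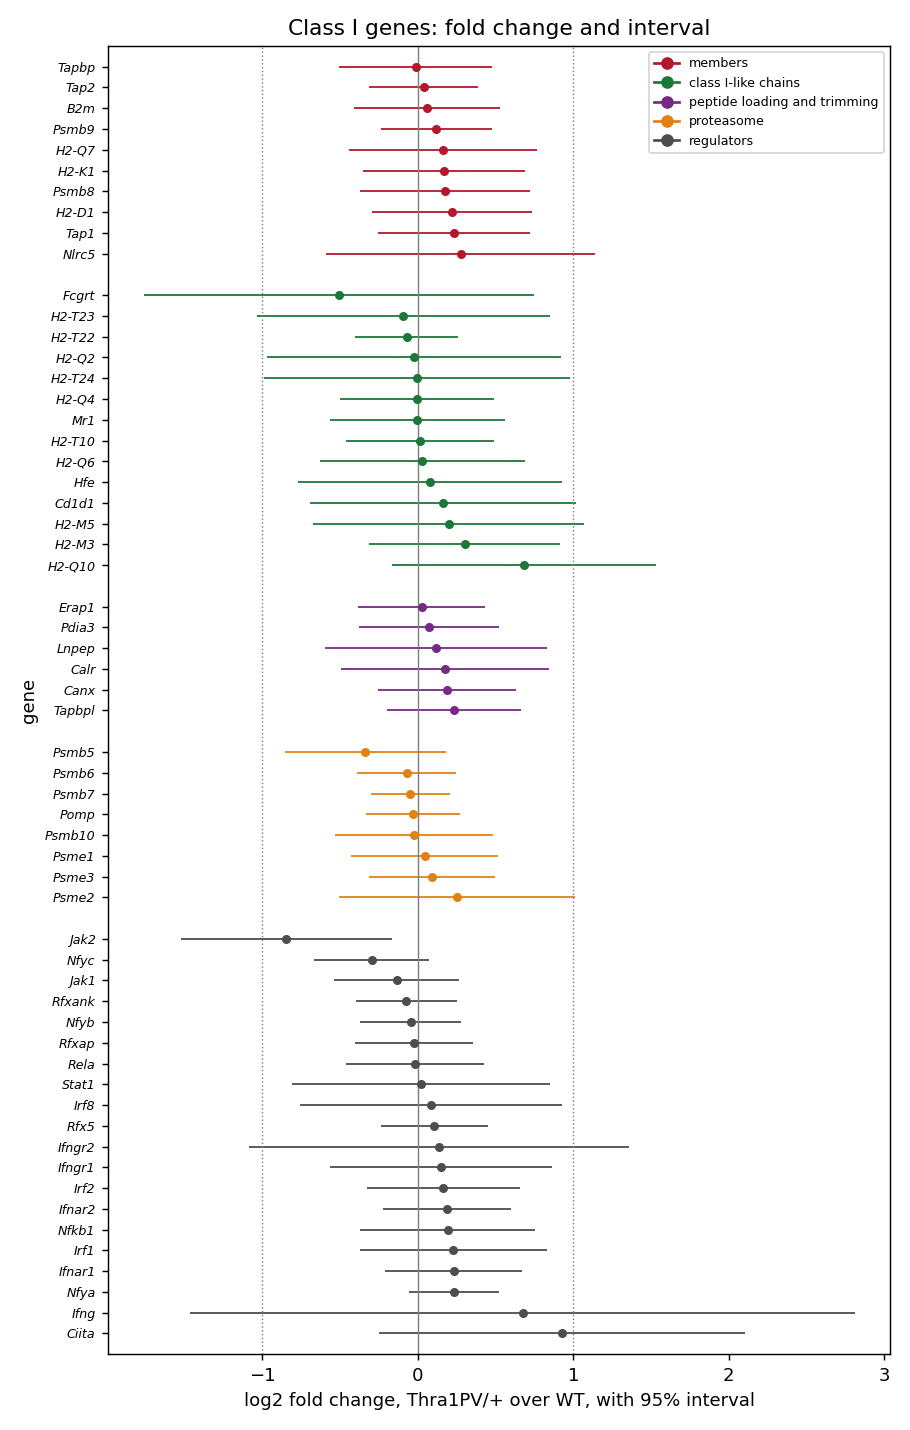
Log2 fold change of Thra1PV/+ over WT (horizontal axis, edgeR fit of 4 against 4 libraries) with its 95% interval for the 10 members (red) and the 48 tested genes of the wider class I list, 1 gene per line and coloured by role. Dotted lines mark a 2-fold change either way, and the intervals of all genes but Jak2 include 0.

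The 10 interferon-stimulated genes read beside them (Isg15, Ifit1, Ifit3, Mx1, Oas1a, Irf7, Gbp2, Gbp3, Cxcl9, Cxcl10) gave 0 calls, where 0.99% of all tested genes were called. The median log2 fold change of these genes was 0.03. Their spread between libraries was wider than that of the members. Irf7, for example, had 311 ± 158 CPM in Thra1PV/+ and 250 ± 158 CPM in WT libraries (SD, n = 4 each), with a log2 fold change of 0.31 (SE 0.58, edgeR adjusted p = 0.912).

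Libraries of the same genotype differed from each other in the members as a group. The mean of the 10 members, each centred on its own mean log2 CPM, was -0.07, 0.01, 0.15 and 0.24 in Thra1PV/+ libraries 1 to 4 and -0.22, -0.51, 0.16 and 0.24 in WT libraries 1 to 4. WT library 2 was the lowest library for 8 of 10 members and for 8 of 10 interferon-stimulated genes, and Thra1PV/+ library 4 was the highest for 5 of 10 members. Thra1PV/+ library 1 was low by the mean of the members but was the lowest library for only 1 of 10. Its 140 CPM of H2-Q7 were exceeded only by the 167 CPM of Thra1PV/+ library 4. The 3 libraries with the lowest mean, WT 2, WT 1 and Thra1PV/+ 1, also had the lowest sums of simple epithelium markers. These were 2264, 1709 and 1653 CPM, where the other 5 had 3018 to 4660. Their sums of stroma markers were the highest (4567, 4649 and 4759 CPM, where the others had 343 to 1553). As a difference of mean log2 CPM, simple epithelium minus stroma was -0.19, -0.65 and -0.11 in those 3 libraries and 2.54 to 4.61 in the other 5. The part of this balance in the members' levels was not tested. With it as a covariate in the edgeR fit, the members' log2 fold changes ranged from -0.23 (Tapbp) to 0.22 (H2-Q7), 0 were called, and Tap2, Psmb8 and Nlrc5 turned below 0, at -0.10, -0.01 and -0.05. The leukocyte list of 5 genes summed to 216 to 368 CPM in Thra1PV/+ and 235 to 305 CPM in WT libraries. The largest part of that sum was Laptm5, with a log2 fold change of -0.16. The other 4 of 5 genes were positive, the list median was 0.50, and Cd53 was higher at an unadjusted p under 0.05 in edgeR's test. The T cell list of 7 genes summed to 13.4 to 36.9 CPM and 8.99 to 20.4 CPM, with 4 of 7 higher at an unadjusted p under 0.05. The B and plasma cell and the neutrophil lists stood further apart. B and plasma cell markers summed to 43.1 to 262 CPM in Thra1PV/+ and 8.20 to 52.5 CPM in WT libraries. In edgeR's test, 3 of 5 tested genes were higher at an unadjusted p under 0.05. The 5 neutrophil markers summed to 65.2 to 673 CPM and 6.36 to 113 CPM, with 3 higher at that p. S100a9 and S100a8 had the highest means of the 5, at 170 and 76.8 CPM in Thra1PV/+ libraries. The log2 fold change was positive for 4 of the 5 and -0.24 for Ly6g. Among all tested genes, 9.77% passed that p in either direction. Cytotoxic and NK cell markers summed to 6.41 to 22.1 CPM in Thra1PV/+ and 8.14 to 53.6 CPM in WT libraries. Of these, 1 of 6 had a positive log2 fold change, with a median of -0.84. The medians were 0.24 for macrophage and 0.08 for dendritic cell markers. No gene of these last lists passed that p. None of these immune markers was called, and their part in the members' levels was not tested. WT 2, the lowest library for most members, had 305 CPM of the leukocyte list, the highest sum of the WT libraries. Of that sum, 205 CPM were Laptm5, and WT 2 was the highest WT library for none of the 5 genes taken singly.

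**Figure D3:**
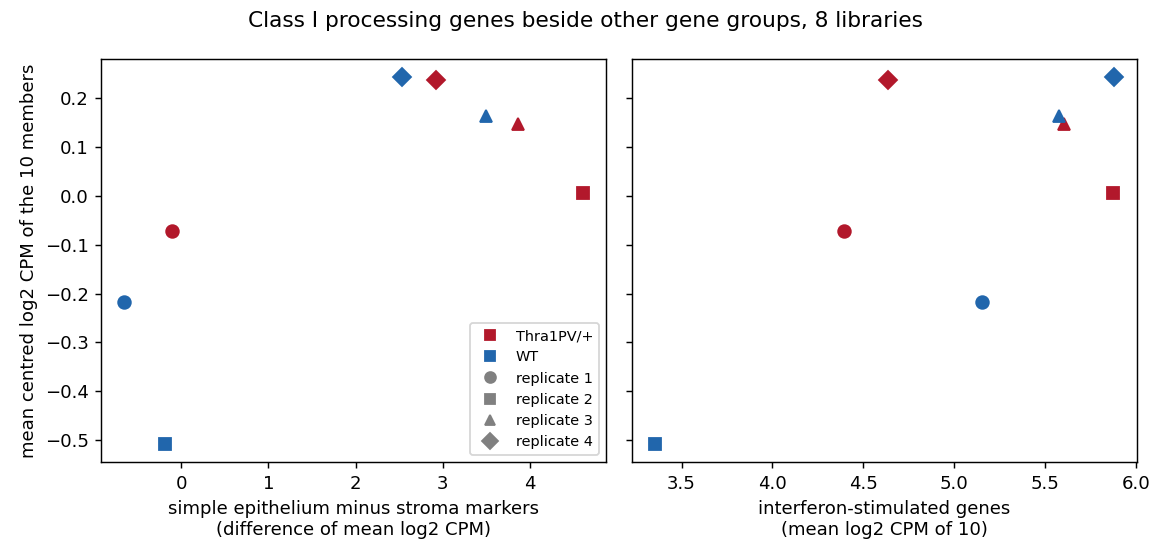
Mean centred log2 CPM of the 10 members (vertical axis) against the simple epithelium minus stroma marker difference (left) and the mean log2 CPM of 10 interferon-stimulated genes (right), 1 point per library, red for Thra1PV/+ and blue for WT, with shape for the replicate number. The 3 libraries at a marker difference below 0 are the 3 with the lowest mean of the members, and WT library 2 is lowest on both scales at the right.

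The members did not all vary together across the 8 libraries. Of the 45 pairs, 41 had a positive Pearson correlation of log2 CPM, with a median of 0.76, and 9 passed an adjusted p of 0.05 by both Pearson's r and Spearman's rho (two-sided exact permutation tests over pairings, Benjamini-Hochberg adjustment over the 45 pairs). These 9 were H2-K1 with H2-D1, B2m and Psmb9, H2-D1 with Psmb9, H2-Q7 with B2m, Tap2 with Tapbp, Psmb8 and Nlrc5, and Tapbp with Psmb8. All points share the libraries and so their depth, dissection and tissue balance. The same counts over pairs of other tested genes were not computed, so they cannot be read as particular to the members. B2m followed H2-K1 and H2-Q7, with r = 0.90 and rho = 0.95 for H2-K1 (permutation p = 0.00176 and 0.00114, adjusted 0.0158 and 0.0171), and r was 0.87 without the 2 libraries farthest from the median of H2-K1. B2m and H2-Q7 had r = 0.79 and rho = 0.95 (permutation p = 0.00570 and 0.00114, adjusted 0.0230 and 0.0171), and r was 0.66 without the 2 farthest libraries. For B2m and H2-D1, r was 0.78 and rho 0.81 (permutation p = 0.0259 and 0.0218), and neither passed the adjustment (0.0584 and 0.0817). Psmb9 followed the classical chains, with r = 0.92 and rho = 0.93 for H2-D1 (permutation p = 0.000322 and 0.00223, adjusted 0.00725 and 0.0251, r = 0.75 without the 2 farthest libraries) and r = 0.86 and rho = 0.88 for H2-K1 (permutation p = 0.00613 and 0.00724, adjusted 0.0230 and 0.0407, r = 0.68 without them).

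Tap2 followed Nlrc5, Tapbp and Psmb8. With Nlrc5, r was 0.93 and rho 0.90 (permutation p = 0.000298 and 0.00456, adjusted 0.00725 and 0.0293), and r was 0.93 without the 2 libraries farthest from the median of Tap2. The heavy chains were not alike in their relation to these genes. H2-D1 had r = 0.70 with Tap2, 0.71 with Tapbp, 0.91 with Psmb8 and 0.76 with Nlrc5 (permutation p = 0.0489, 0.0505, 0.00372 and 0.0301, rho 0.43, 0.52, 0.57 and 0.45), and of these only Psmb8 passed the adjustment, by r (0.0209) and not by rho (0.262). Without the 2 libraries farthest from the median of H2-D1, these r fell to 0.39, 0.53, 0.49 and 0.06. H2-K1 had r = 0.37, 0.39, 0.63 and 0.45 with the same genes in that order (permutation p = 0.360, 0.332, 0.0994 and 0.268). For H2-Q7, r was -0.27 with Tap2, -0.24 with Tapbp, -0.01 with Psmb8 and -0.21 with Nlrc5 (permutation p = 0.516, 0.576, 0.979 and 0.632, rho -0.10, -0.02, 0.07 and -0.05). Whether these correlations differ between the chains was not tested. Within genotype, after the mean of each genotype was subtracted, r was 0.91 for H2-K1 with B2m, 0.95 for Tap2 with Nlrc5 and -0.28 for Tap2 with H2-Q7. Some pairs rested on few libraries, such as Tap1 with Psmb9, whose r of 0.76 went to -0.07 without the 2 libraries farthest from the median of Tap1.

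**Figure D4:**
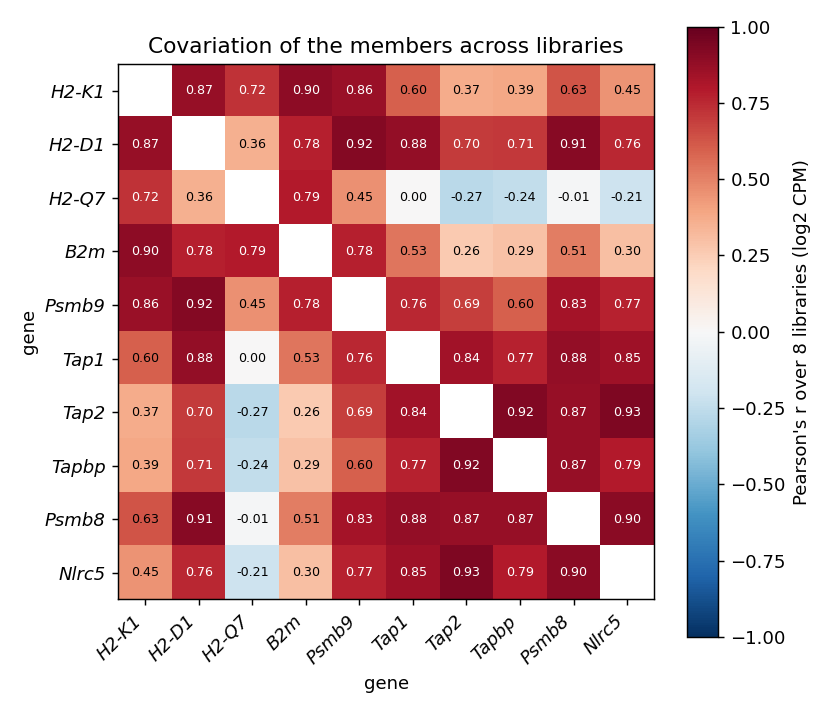
Pearson's r of log2 CPM over 8 libraries for each pair of the 10 members, printed in each cell and coloured from blue (-1) to red (1). H2-Q7 has high values with H2-K1 and B2m and values near or below 0 with Tap1, Tap2, Tapbp, Psmb8 and Nlrc5.

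Ratios within a library do not depend on its depth, and 7 were taken after the values of the genes had been seen. For 6 of the 7 the genotypes overlapped. The exception was Psmb8 over Psmb5, the immunoproteasome subunit over the standard subunit it replaces. Its log2 ratio was -0.05, -0.20, -0.25 and -0.19 in Thra1PV/+ and -0.68, -0.86, -0.84 and -0.46 in WT libraries, so that the 4 Thra1PV/+ libraries lay above the 4 WT libraries, by 0.54 in the mean. A two-sided exact permutation test gave p = 0.0286, the smallest it can give, and 0.2 after Benjamini-Hochberg adjustment over the 7 ratios, so the difference did not pass the correction. Among single genes, 6.04% showed such a separation. Neither gene was called alone, Psmb5 having 151 ± 27.3 CPM in Thra1PV/+ and 190 ± 51.4 CPM in WT libraries (SD, n = 4 each, edgeR adjusted p = 0.684). The other replacements did not show this separation. The log2 ratio of Psmb9 over Psmb6 was -1.83 ± 0.12 and -2.02 ± 0.31, and that of Psmb10 over Psmb7 was -0.77 ± 0.27 and -0.82 ± 0.37 (SD, n = 4 each). Among heavy chains, H2-K1 over B2m came to -0.07 ± 0.15 and -0.19 ± 0.11, and H2-D1 over B2m to -0.02 ± 0.22 and -0.21 ± 0.15. H2-Q7 over H2-Q6 came to 0.55 ± 0.08 and 0.42 ± 0.29.

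**Figure D5:**
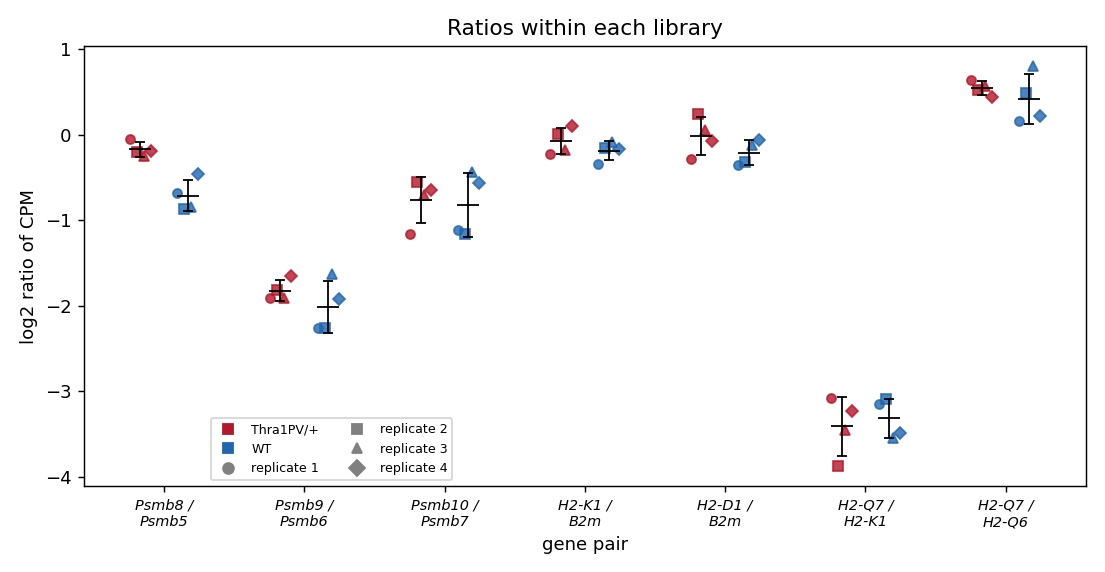
Log2 ratio of CPM within each library (vertical axis) for 7 gene pairs (horizontal axis), red for 4 Thra1PV/+ and blue for 4 WT libraries, with black bars for the mean and SD. The Thra1PV/+ libraries lie above the WT libraries for Psmb8 over Psmb5 and overlap with them for the other 6 pairs.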

How the data were processed

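Reads from 4 Thra1PV/+ and 4 WT libraries were trimmed with Trimmomatic and quantified with salmon for mm10 by the authors (versions and annotation release not given in the sources used here), who deposited estimated counts per gene without normalization. They also deposited TPM values, whose sorted values differ between libraries by at most 0.291, as after quantile normalization. This lessens differences between libraries. The TPM table has 1 further column of values that matches no sample and was not used.

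Estimated counts were rounded, filtered (filterByExpr, minimum count 10, total 15), normalized by TMM and tested with edgeR 4.0.16 in R 4.3.3. Log2 CPM used a prior count of 2. DESeq2 1.42.0, limma 3.58.1 on log2(TPM + 1), other scalings, filters, a replicate block and single libraries left out were alternatives. Scripts were tested on simulated data. Of the identifiers, 105 had no symbol (at most 0.00896% of counts). Named genes were the 10 members and the pathway, interferon and marker lists, of which any gene may be named. The members and lists were chosen with earlier results of these data known. Libraries were taken as 4 mice per genotype, as the study's methods give them.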

Additional observations from a re-analysis of the deposited data

Results flagged for a closer look

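Over the 10 members, 8 other class I genes chosen after their values were seen and the 7 ratios, 50 groups of 4 libraries in all, single libraries far from the other 3 were looked for with Dixon's ratio at 95%. It marked 2 groups, and chance gives about 1 in 20. Psmb10, a catalytic subunit of the immunoproteasome, had a log2 CPM of 5.55 in Thra1PV/+ library 1, where the other Thra1PV/+ libraries had 5.99 to 6.08. The regulator of class II genes, Ciita, had a log2 CPM of 0.13 in WT library 3, where the other WT libraries had 1.63 to 1.93. No member and no ratio was marked.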

How the results depend on the processing

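No member was called in any of the alternatives run, and the members' median log2 fold change stayed between 0.04 and 0.25. Over all members and alternatives, 145 of 167 values kept their sign and 22 turned. Tapbp turned to 0.010 with DESeq2's size factors, 0.012 with DESeq2, 0.011 with a filter of 1 count, 0.0719 and 0.0722 on TPM with a pseudocount of 1 and 0.1, and 0.0721 without the WT 1 and Thra1PV/+ 1 libraries, and ranged from -0.11 to 0.15 without 1 library. Tap2 turned to -0.0059 and -0.0061 on TPM with those pseudocounts and to -0.10 with the simple epithelium minus stroma covariate, and ranged from -0.023 to 0.17 without 1 library. Psmb9 turned to -0.11 on TPM with either pseudocount, and Psmb8 and Nlrc5 to -0.014 and -0.050 with the covariate. Without 1 library, H2-Q7 ranged from -0.044 to 0.37 and B2m from -0.017 to 0.18. The cause was not tested. The covariate and the joint removal of 2 libraries were chosen after seeing the data.

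Over all genes, DESeq2 called 791, the covariate 407, an adjusted p of 0.05 119, an unadjusted p under 0.05 with no fold threshold 1775, and fits without 1 library 81 to 167 (81 without Thra1PV/+ 3, 116 without Thra1PV/+ 2, 114 without WT 4), against 180. On the wider class I list, 1 gene passed an unadjusted p under 0.05. With replicate number as a block, 82 genes were called and 0 members. Deviations of same-numbered libraries correlated at 0.27, -0.44, 0.34 and -0.16. These values differ in sign and show no common pairing by number, but they cannot exclude one. At these depths the members' precision was set by the spread between 4 libraries.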

Other observations

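The mean profile of the 10 members over the 8 libraries was set against every other tested gene. The highest Pearson correlations were those of Psmc6, an ATPase subunit of the proteasome (r = 0.96), Fuca2, a fucosidase (0.96), Muc5ac, a gel-forming mucin (0.95), Edn2, an endothelin (0.95), and Steap2, a metal reductase (0.95). These 5 are the top of a ranking of all tested genes over 8 libraries, so their values are a description only. None of the 5 was called between genotypes by edgeR's quasi-likelihood test (adjusted p = 0.834 to 0.965).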
